A study of Homo sapiens with 24 samples.

Results

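The MYC domain on 8q24 was examined in open-chromatin maps of prostate cancer cells. The domain was taken as chr8:127900000-129120000 (hg19, 1.22 Mb), and its members were the peaks of all 24 lists that overlapped it. These were 3319 of the 4683186 deposited peaks. Lists differed in length, so the 50000 peaks with the highest −log10 p of each library (top-ranked peaks) were compared. Of the 1200000 top-ranked peaks, 878 fell in the domain and merged into 81 of 119361 regions, named R1 to R81 from the upstream end. The median region was 518 bp long. Against MYC (chr8:128748300-128753700, as set for this work), 48 regions lay more than 10 kb upstream, 4 within 10 kb and 29 more than 10 kb downstream, on the side of PVT1.

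MYC encodes a transcription factor that drives cell growth and division, and PVT1 is a long noncoding RNA gene next to it. The stretch upstream of MYC holds few protein-coding genes but many enhancers and noncoding RNAs, and inherited variants there are associated with the risk of prostate and other cancers. In the RefSeq annotation of GRCh38.p14, used here for gene order only, the genes towards MYC run PCAT1, PCAT2, PRNCR1, CASC19, CCAT1, CASC21, CASC8, CCAT2, POU5F1B and CASC11, and PVT1 follows MYC. No hg19 annotation was used here, so no region is assigned to an exon, an intron or to PVT1 itself. The androgen receptor, which is activated by androgens such as dihydrotestosterone (DHT) and blocked by enzalutamide (ENZ), acts in these cells largely through enhancers.

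FAIRE-seq, which enriches DNA that is not wrapped in nucleosomes after formaldehyde cross-linking, was performed on LNCaP, an androgen-sensitive prostate cancer line referred to as parental, and on RES-A, a derivative selected for resistance to ENZ (labelled LNCaP-R). Both were kept for 3 days in RPMI with 5% charcoal-stripped serum, to which 10 µM ENZ was added for RES-A only. They were then treated for 18 h with DMSO (solvent), 10 nM DHT, 10 µM ENZ (labelled MDV) or both agents, giving 8 groups of 3 biological replicates. Each subline is a single cell line, and the sublines also differed in their exposure to ENZ before treatment, so the effects of subline and of that exposure cannot be told apart. FAIRE-seq was performed on bulk cells, so fewer cells with an open site and a less open site per cell cannot be told apart either.

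The lists held 73254 to 275774 peaks, and the background that the peak caller assumed genome-wide ranged from 0.406 to 5.99 reads per base. In 2 LNCaP libraries, DHT replicate 1 (47 deposited peaks in the domain) and ENZ replicate 1 (49), it was under 1. The library with the next fewest deposited peaks in the domain held 80.

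Some sites of the domain were open in every library. Of the 81 regions, 11 (13.6%) had a top-ranked peak in all 24 libraries, against 10.6% of all regions, and 16 had one in a single library. The 5 regions with the highest mean percentile of −log10 p were R27, R69, R75, R10 and R38, with mean percentiles from 91.5 to 95.7. R27 (chr8:128342252-128343087) lay at −405.6 kb from the MYC start. Its fold enrichment, the pileup at the summit over the pileup expected locally, ranged from 5.87 to 9.98 (median 7.55) in LNCaP and had a median of 8.81 in RES-A. R69 (chr8:128907780-128908444) and R75 (chr8:128964329-128964871) lay 159.8 and 216.3 kb downstream. These 5 lay on both sides of the gene.

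At MYC itself, R49 (chr8:128746106-128746670), 1.9 kb upstream of the start, had a top-ranked peak in all 24 libraries and a mean percentile of 90.9, close to the lowest of these 5. Its fold enrichment ranged from 4.30 to 8.87 (median 7) in LNCaP and from 6.77 to 9.93 (median 8.28) in RES-A. After quantile normalisation the sublines differed at R49 by −0.02 ± 0.08 (SE) on the log2 scale (limma, adjusted p = 0.896). Its DHT-minus-DMSO difference was −0.23 ± 0.16 in LNCaP (adjusted p = 0.473) and 0.11 ± 0.16 in RES-A (adjusted p = 0.895). No difference between sublines or with DHT passed the test at this upstream site. R50 (chr8:128748321-128748559), which began 21 bp past the start, was weaker. It had a peak of any rank in 21 libraries and a top-ranked peak in 2, both LNCaP with DHT. DHT replicate 1, a library of low background with 82224 peaks in all, was 1 of these 2. The fold enrichment of R50 with DHT in LNCaP was 4.60, 4.69 and 3.58, against 2.74, 3.39 and 3.11 with DMSO. These 2 groups did not overlap, but the single LNCaP ENZ library with a peak (3.58) and the highest DHT+ENZ library (3.74) reached the DHT range. R50 lacked a peak in 3 libraries and was not tested.

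RES-A had more top-ranked peaks in the domain than LNCaP. The 12 LNCaP libraries held 28 to 37 (median 31) and the 12 RES-A libraries 36 to 47 (median 41.5). Only 1 RES-A library, ENZ replicate 2 at 36, lay within the range of LNCaP, where ENZ replicate 1 reached 36 and DHT+ENZ replicate 3 reached 37. As a share of all top-ranked peaks, the difference was 0.019 percentage points (0.0637% ± 0.0059 in LNCaP against 0.0827% ± 0.0065 in RES-A, SD, n = 12 each). It passed an exact permutation test that relabelled libraries within each treatment (two-sided p = 2.5e-05, adjusted p = 7.36e-05 over 1867 windows of the same width). Many windows passed at an adjusted p under 0.05: 37.3% were higher and 32.6% lower in RES-A. The MYC domain stood at percentile 90.1 of the differences.

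The difference was of like size with each treatment. It was 0.016 points with DMSO, 0.022 with DHT, 0.018 with ENZ and 0.020 with DHT+ENZ. With 3 libraries against 3, the exact permutation test cannot give a p under 0.1, and it gave 0.1 with DMSO, DHT and DHT+ENZ and 0.2 with ENZ. The chromosome as a whole went the other way. Chromosome 8 held 4.80 to 5.29% of the top-ranked peaks in LNCaP and 4 to 4.15% in RES-A. At an adjusted p under 0.05, 46 of its 92 windows were lower in RES-A and 20 higher. Of the 7 tested windows among the 4 on each side of the domain, 5 were higher in RES-A and 1 was lower at that threshold. Among the top-ranked peaks of the domain and 5 Mb on each side, the domain held 2.20 percentage points more in RES-A (exact permutation test, unadjusted p = 0.00106). That comparison was chosen after seeing the data.

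The background around the peaks was higher in RES-A too. The local background, the pileup expected at the peaks of the domain over that of the whole library, was 1.57 to 2.01 (median 1.79) in LNCaP and 2.24 to 2.85 (median 2.52) in RES-A, with no overlap. The difference was 0.734 (exact permutation test, p = 1.25e-05, the smallest this design can give; adjusted p = 4.06e-05). At an adjusted p under 0.05, local background was higher in RES-A in 64.8% of windows and lower in 11%. It was higher at that threshold in all 7 neighbouring windows. The MYC domain stood at percentile 96.9. The part of the local background in the larger number of top-ranked peaks was not tested.

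**Figure D1:**
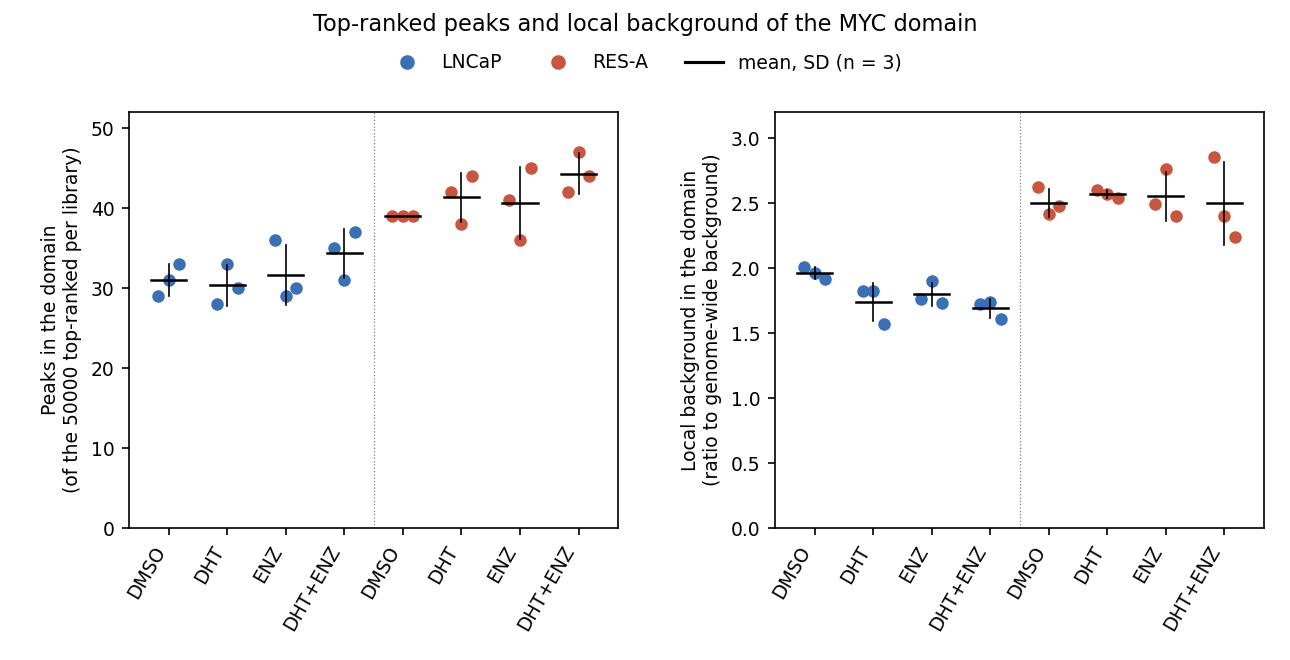
Left, number of the 50000 top-ranked peaks of each library that fell in the MYC domain; right, local background at those peaks as a ratio to the genome-wide background. Points are libraries, lines the mean and SD of 3 libraries; RES-A held 36 to 47 peaks and LNCaP 28 to 37, and the local backgrounds of the sublines did not overlap.

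The additional RES-A peaks were at separate sites on both sides of MYC. Of the 81 regions, 24 (29.6%) had a top-ranked peak in RES-A libraries only, against 15.5% of all regions, and 14 (17.3%) in LNCaP libraries only, against 33.9%. Of the 25 regions called in 6 to 18 libraries, 13 were called in more RES-A libraries and 3 in more LNCaP libraries (Fisher's exact test, adjusted p under 0.05). Over all regions tested these shares were 31.7% and 26.1%. Some of the 13 had no LNCaP call and met the minimum of 6 calls through RES-A alone. In RES-A, 7 of the 13 lay upstream, 1 near MYC and 5 downstream. The 3 more frequent in LNCaP were all upstream.

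R47, R20 and R77 were called in all 12 RES-A libraries and in no LNCaP library (adjusted p = 1.29e-05 each). The same held for 1.42% of all regions, and no region of the domain showed the reverse. R47, R20 and R77 were defined, and entered the test, through top-ranked peaks of RES-A alone. The fold enrichments below describe these peaks and are not separate support for the calls. R47 (chr8:128674945-128675550) lay at −73.1 kb from the MYC start. In RES-A its fold enrichment ranged from 9.96 to 13.2 (median 11.9). In LNCaP 9 libraries had a peak below the top 50000, from 2.70 to 6.59 (median 4.50), and 3 had none. The highest of these 9 libraries was below the lowest RES-A library. A library without a peak did not pass the caller's threshold there, which sets no level of 0.

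R20 (chr8:128112087-128112719), at −635.9 kb, ranged from 6.62 to 8.48 (median 7.79) in RES-A. In LNCaP it ranged from 2.46 to 4.28 (median 3.18) in the 9 libraries with a peak. Only 1130 bases separated it from R21 (chr8:128113850-128114470), which had a top-ranked peak in all 24 libraries. R77 (chr8:129040054-129040725), 292.1 kb downstream, ranged from 8.66 to 13.4 (median 11.1) in RES-A. Only 3 LNCaP libraries had a peak of any rank there, at 3.35, 3.43 and 3.54. Its neighbour R78, 6309 bases further on, was called in 11 LNCaP and 12 RES-A libraries.

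Sites with opposite patterns stood close together in the 100-kb step from −700 to −600 kb. Here LNCaP libraries had on average 4 ± 0.43 called regions and RES-A libraries 6.83 ± 0.58 (SD, n = 12 each), the widest gap of the 13 steps. From R12 to R21, 63.6 kb, R12, R14, R19 and R20 were called more often in RES-A, while R15, R17 and R21 were called in all 24 libraries. R12 was called in 11 RES-A and 0 LNCaP libraries, R14 in 12 and 1, and R19 in 8 and 0. Like R20, R12 and R19 entered the test through RES-A calls alone. R18 (chr8:128103847-128104366), 53 bases from R17, had the opposite pattern, with calls in 10 LNCaP and 2 RES-A libraries (adjusted p = 0.00891). Its fold enrichment ranged from 4.02 to 5.36 (median 5.00) in the 10 LNCaP libraries with a peak and from 2.52 to 4.5 (median 3.18) in RES-A. Both RES-A calls at R18 were made with DHT.

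Closer to the gene, R52 (chr8:128755350-128755756), 7.3 kb past the MYC start, was called in 6 RES-A libraries and in no LNCaP library (adjusted p = 0.0248). With 6 the fewest calls tested, R52 entered the test through RES-A alone, and its call did not hold under every alternative setting. The fold enrichment of R52 ranged from 3.84 to 7.59 (median 5.47) in RES-A. In LNCaP 2 libraries had a peak of any rank there, at 2.46 and 3.02. R51, 263 bases before it, was called in 4 RES-A libraries, 3 of them with ENZ, and too seldom to be tested.

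R42 (chr8:128564673-128565235), at −183.3 kb, was called in 9 LNCaP libraries and 1 RES-A library (adjusted p = 0.00759). Its fold enrichments overlapped, from 3.77 to 8.67 (median 5.82) in LNCaP and from 3.5 to 8.02 (median 5.24) in RES-A. R1 (chr8:127908254-127908685), near the upstream end, was called in 11 LNCaP and 5 RES-A libraries (adjusted p = 0.0471). Its median fold enrichment was nevertheless 6.83 in the 11 LNCaP libraries with a peak and 7.42 in RES-A. The R1 call did not hold under several alternative settings.

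**Figure D2:**
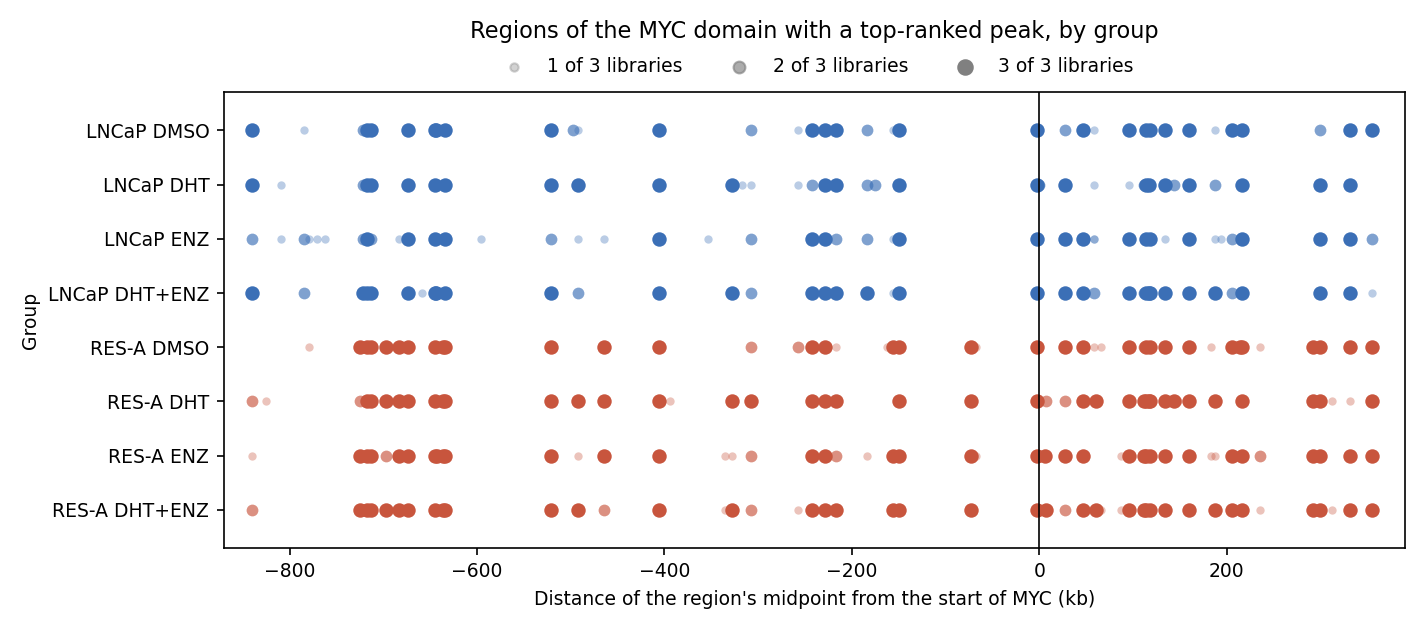
Regions of the domain with a top-ranked peak, by distance of the region's midpoint from the MYC start (kb, vertical line at 0) and by group; the size and shade of a point give the number of libraries, 1 to 3, with the call. Columns present in all RES-A groups and in no LNCaP group include R20 at −635.9 kb, R47 at −73.1 kb and R77 at 292.1 kb.

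**Figure D3:**
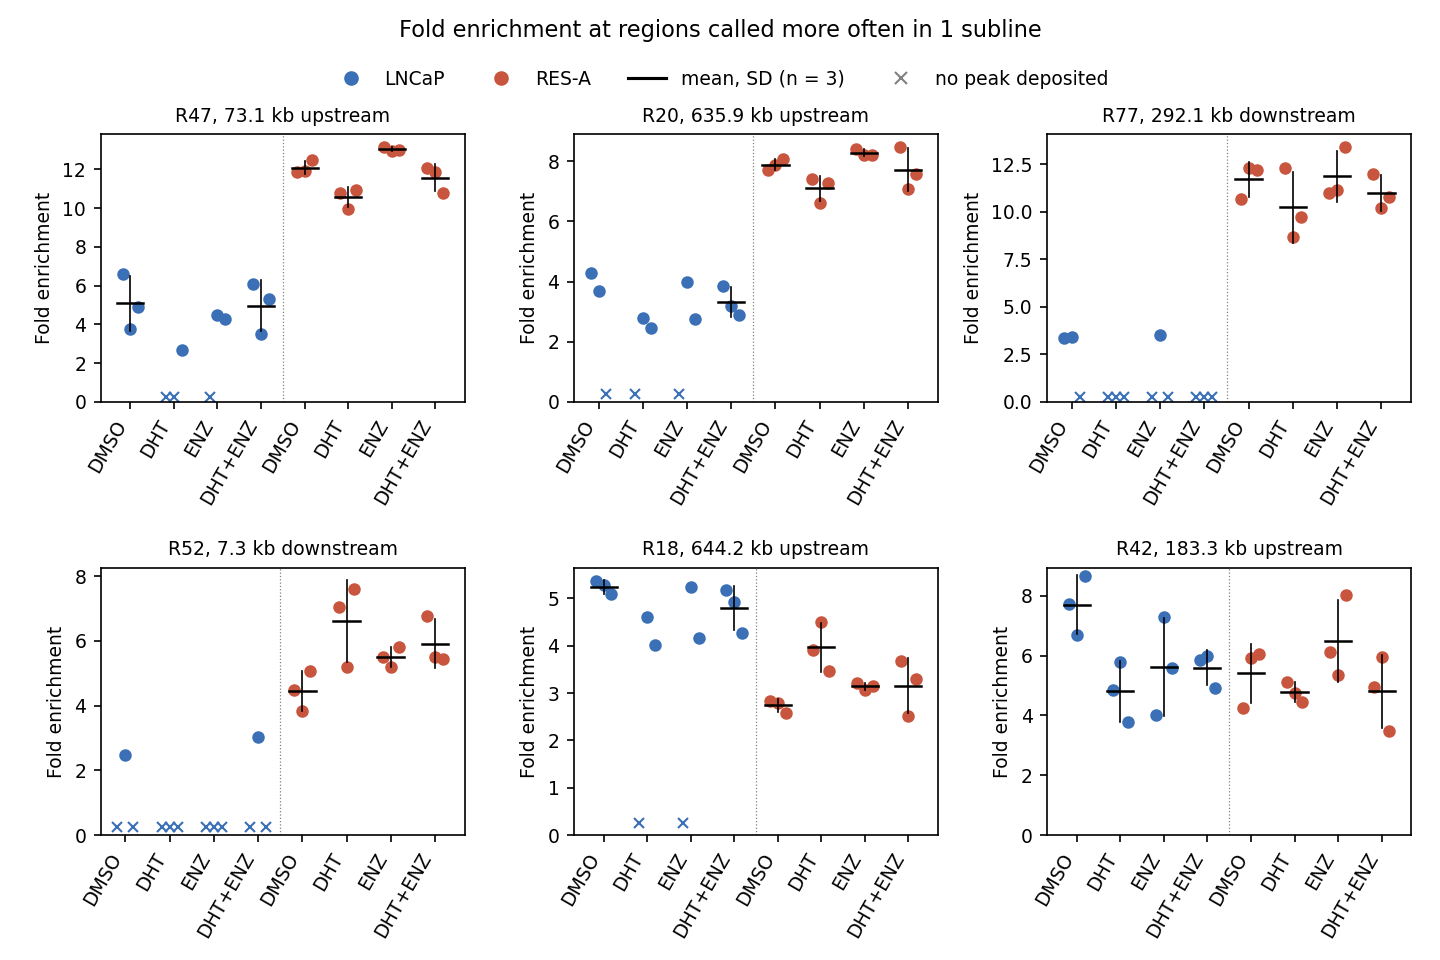
Fold enrichment in each library at 4 regions called more often in RES-A (R47, R20, R77, R52) and 2 called more often in LNCaP (R18, R42). Crosses mark libraries with no deposited peak, and means with SD are drawn for groups with a peak in all 3 libraries; at R47 the 12 RES-A libraries stood at 9.96 to 13.2 and the 9 LNCaP libraries with a peak at 2.70 to 6.59.

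Shared sites differed in strength as well, in both directions. At the 22 regions with a peak of any rank in all 24 libraries, fold enrichment was quantile-normalised and compared with limma. RES-A was higher at 5 (17.6% of all regions tested) and lower at 6 (17.9%), and the median over the 22 was −0.06 on the log2 scale, against 0.01 over all regions tested. Without the 2 libraries of low background, 44 regions had a peak in every library, of which 13 were higher and 14 lower. No share over all regions is set beside these counts. Of the 5 higher regions 4 lay downstream: R55, R62, R65 and R78. The lower ones were R21, R35 and R42 upstream and R64, R69 and R80 downstream.

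R62 (chr8:128859638-128860062), 111.6 kb downstream, was the most clearly higher, by 0.47 ± 0.08 (SE; adjusted p = 7.92e-05). As deposited, its fold enrichment ranged from 3.52 to 6.41 (median 4.88) in LNCaP and from 5.95 to 8.84 (median 8) in RES-A, so that the sublines overlapped little. R55 (chr8:128794644-128795255) was higher by 0.38 ± 0.07 (adjusted p = 0.000184), R65 by 0.35 ± 0.08 (adjusted p = 0.00174) and R78 by 0.30 ± 0.08 (adjusted p = 0.00406). R15 was higher by 0.23 ± 0.08 (adjusted p = 0.0223), a call lost without the 2 libraries of low background (0.15). By treatment, R15 differed by 0.62 with DHT (limma, adjusted p = 0.00886). With DMSO, ENZ and DHT+ENZ it differed by 0.02, 0.12 and 0.15, and none of these passed. With the percentile of −log10 p in place of fold enrichment, R65 (adjusted p = 0.115), R78 (0.0673) and R15 (0.0692) did not pass.

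R80 (chr8:129080062-129080539), 332.0 kb downstream, was lower in RES-A by 0.50 ± 0.07 (log2 difference −0.50, adjusted p = 5.39e-06). As deposited, it ranged from 6.19 to 14.7 (median 10.1) in LNCaP and from 6.88 to 12.8 (median 8.85) in RES-A. The sublines overlapped widely on that scale. R42 differed by −0.33 ± 0.10 and R35 by −0.29 ± 0.08 (adjusted p = 0.00932 and 0.00557), and neither passed by percentile of −log10 p (adjusted p = 0.134 and 0.705). By treatment, R42 ran from −0.55 with DMSO to −0.009 with ENZ, and R35 from −0.55 with ENZ to 0.02 with DHT. R21 and R64 differed by −0.26 ± 0.06 and −0.29 ± 0.08 (adjusted p = 0.00238 and 0.00594), but by percentile neither passed (adjusted p = 0.341 and 0.622). The direction turned when the pileup over the genome-wide background was used in place of fold enrichment. By this pileup measure R21 was higher in RES-A, by 0.52 (limma, adjusted p = 1.88e-06), and R64 did not differ past the threshold (0.038, adjusted p = 0.755). That measure does not divide by the local background. It called 11 of the 22 regions higher and 3 lower, given without a share over all regions. Why the measures differed was not tested.

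**Figure D4:**
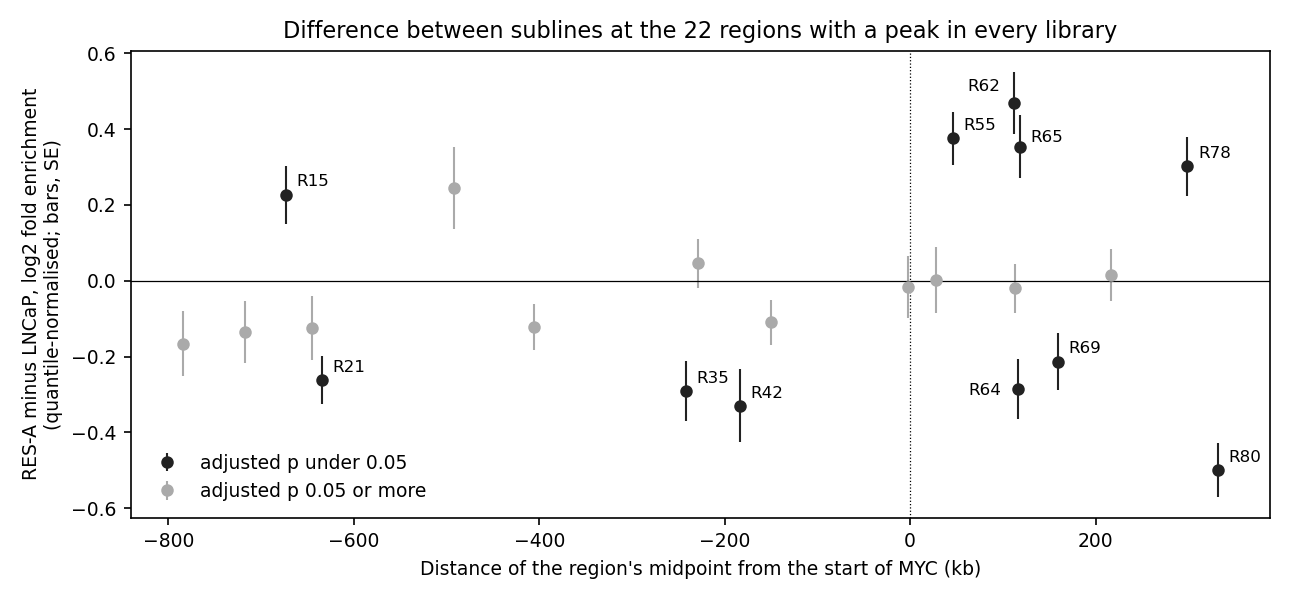
Log2 difference in quantile-normalised fold enrichment, RES-A minus LNCaP, with SE, at the 22 regions with a peak in every library, against distance from the MYC start (kb). Black points, 5 above and 6 below 0, had an adjusted p under 0.05; R62 was highest at 0.47 and R80 lowest at −0.50.

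DHT did not move the number of top-ranked peaks in the domain by more than the spread between replicates. The difference from DMSO was −0.001 percentage points in LNCaP (exact permutation test, p = 0.8) and 0.005 in RES-A (exact permutation test, p = 0.4). No window of the genome passed the adjusted threshold in these comparisons (0%), since 3 libraries against 3 cannot give an exact p under 0.1. Single regions did respond, some opening and some closing.

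In LNCaP, DHT raised 1 of the 22 regions (1.19% of all regions tested) and lowered 2 (1.11%). In RES-A it raised 3 (3.65%) and lowered 1 (1.3%). R25 rose and R55 fell in both sublines. R65 also fell in LNCaP, and R21 and R64 also rose in RES-A. A filter of a peak in at least 20 libraries and in at least 2 of each group left 51 regions of the domain. Of these, 1 rose and 3 fell in LNCaP (1.17% and 1.02% of all regions tested). In RES-A, 5 rose and 1 fell (5% and 2.1%). That filter added R81 among those lower in LNCaP, and R31, R41 and R71 among those higher and R73 lower in RES-A, where R21 and R55 no longer passed. Without the 2 libraries of low background, 3 rose in LNCaP, and 8 rose and 3 fell in RES-A, given without a share over all regions.

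R25 (chr8:128255728-128256490) lay at −492.2 kb. In RES-A its fold enrichment was 4.23, 6.16 and 6.62 with DMSO and 11.6, 10.2 and 10.5 with DHT, with no overlap, a log2 difference of 0.84 ± 0.21 (SE; adjusted p = 0.0198). In LNCaP it was 6.43, 6.01 and 3.75 with DMSO and 9.87, 6.64 and 5.85 with DHT. The LNCaP groups overlapped, and the difference was 0.92 ± 0.21 (adjusted p = 0.0263). The highest LNCaP value came from DHT replicate 1, 1 of the 2 libraries of low background, without which the difference was 0.62 (adjusted p = 0.161), and 0.60 without both (adjusted p = 0.0711).

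R31 (chr8:128420539-128421047), at −327.5 kb, had a peak in 23 libraries and was singled out after its values were seen. In RES-A it stood at 6.18, 4.43 and 5.27 with DMSO and at 10.3, 11.9 and 12 with DHT. This was a log2 difference of 1.04 ± 0.16 under the looser filter (adjusted p = 0.000161). In LNCaP the values were 6.74, 6.59 and 4.51 with DMSO and 5.27, 8.27 and 7.19 with DHT, a difference of 0.57 ± 0.16 that missed the threshold (adjusted p = 0.0592). All 3 DHT libraries and no DMSO library had a top-ranked peak at R31 in both sublines.

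R64 and R65 were 1478 bases apart, 116.7 and 118.6 kb downstream of the MYC start, and their DHT differences had opposite signs, although in neither subline did both pass the test. At R64 (chr8:128864725-128865238), RES-A rose from 4.64, 3.60 and 3.92 with DMSO to 7.11, 7.27 and 6.58 with DHT, by 0.66 ± 0.16 on the log2 scale (adjusted p = 0.0121). The LNCaP difference at R64 was 0.57 ± 0.16 (adjusted p = 0.0519). At R65 (chr8:128866717-128867165), LNCaP fell from 8.90, 7.52 and 6.32 to 3.32, 4.28 and 4.21, a log2 difference of −0.79 ± 0.17 (adjusted p = 0.0158). The RES-A difference at R65 was −0.46 ± 0.17 (adjusted p = 0.135). In the RES-A groups at R64 and the LNCaP groups at R65, no DHT library overlapped a DMSO library.

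R55, 46.6 kb downstream, fell with DHT in LNCaP from 9.63, 9.71 and 6.90 to 4.41, 4.23 and 4.61, a log2 difference of −0.66 ± 0.14 (adjusted p = 0.0172). In RES-A it fell from 10.6, 13 and 11.6 to 8.27, 8.56 and 7.06, by −0.49 ± 0.14 (adjusted p = 0.0420). R73 (chr8:128953603-128954003), 205.5 kb downstream, was also singled out after its values were seen. In RES-A it fell from 11.2, 10.8 and 14.5 to 6.31, 5.89 and 6.78, a log2 difference of −0.85 ± 0.16 under the looser filter (adjusted p = 0.000921). The LNCaP difference was −0.22 ± 0.18 (adjusted p = 0.549), and the sublines' responses did not differ past the threshold (−0.63 ± 0.24, adjusted p = 0.457). R81, at the downstream end, fell in LNCaP from 9.38, 8.56 and 5.79 to 4.54, 4.63 and 3.43 (−0.65 ± 0.15, adjusted p = 0.0254), and its RES-A difference was −0.24 ± 0.15 (adjusted p = 0.460).

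These calls rest on 3 libraries a group, and single libraries decided several of them. In LNCaP, the R25 call was lost without DMSO replicate 2 or 3 or DHT replicate 1 (differences of 0.95, 0.75 and 0.62). The R65 and R55 calls were lost without DMSO replicate 1 (−0.69 and −0.61) or DHT replicate 1 (−0.51 and −0.66), and R65 also without both libraries of low background (−0.54). In RES-A, the R64 call was lost without DMSO replicate 2 or 3 or DHT replicate 2 (0.59, 0.60 and 0.63). The R25 call was lost without DMSO replicate 1 or any of the 3 DHT libraries (0.69 to 0.87). The R55 call was lost in 10 of the 24 fits that left out 1 library, among them all 6 without a RES-A DMSO or DHT library (−0.54 to −0.40). The R21 call, 0.44 ± 0.13 (adjusted p = 0.0446), was lost in 14 of them, each of the 12 without a RES-A library included (0.42 to 0.48). No difference changed direction in these fits. With the percentile of −log10 p in place of fold enrichment, none of these DHT calls passed in either subline (adjusted p from 0.148 to 1).

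Top-ranked calls also separated treatments at single regions. Between DHT and DMSO in RES-A, 6 of the 62 regions called in either group were called in all 3 DHT libraries and no DMSO library (R25, R31, R58, R64, R67 and R71; 5.62% of all such regions). R45 and R73 showed the reverse (3.41%). In LNCaP, 1 of 46 was called with DHT alone (R31; 2.16%) and 4 with DMSO alone (R55, R65, R73 and R81; 1.73%). No difference between the DHT responses of the sublines passed the test at any of the 22 regions; 1 had an unadjusted p under 0.05, R15 (0.61 ± 0.22, limma, adjusted p = 0.446).

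**Figure D5:**
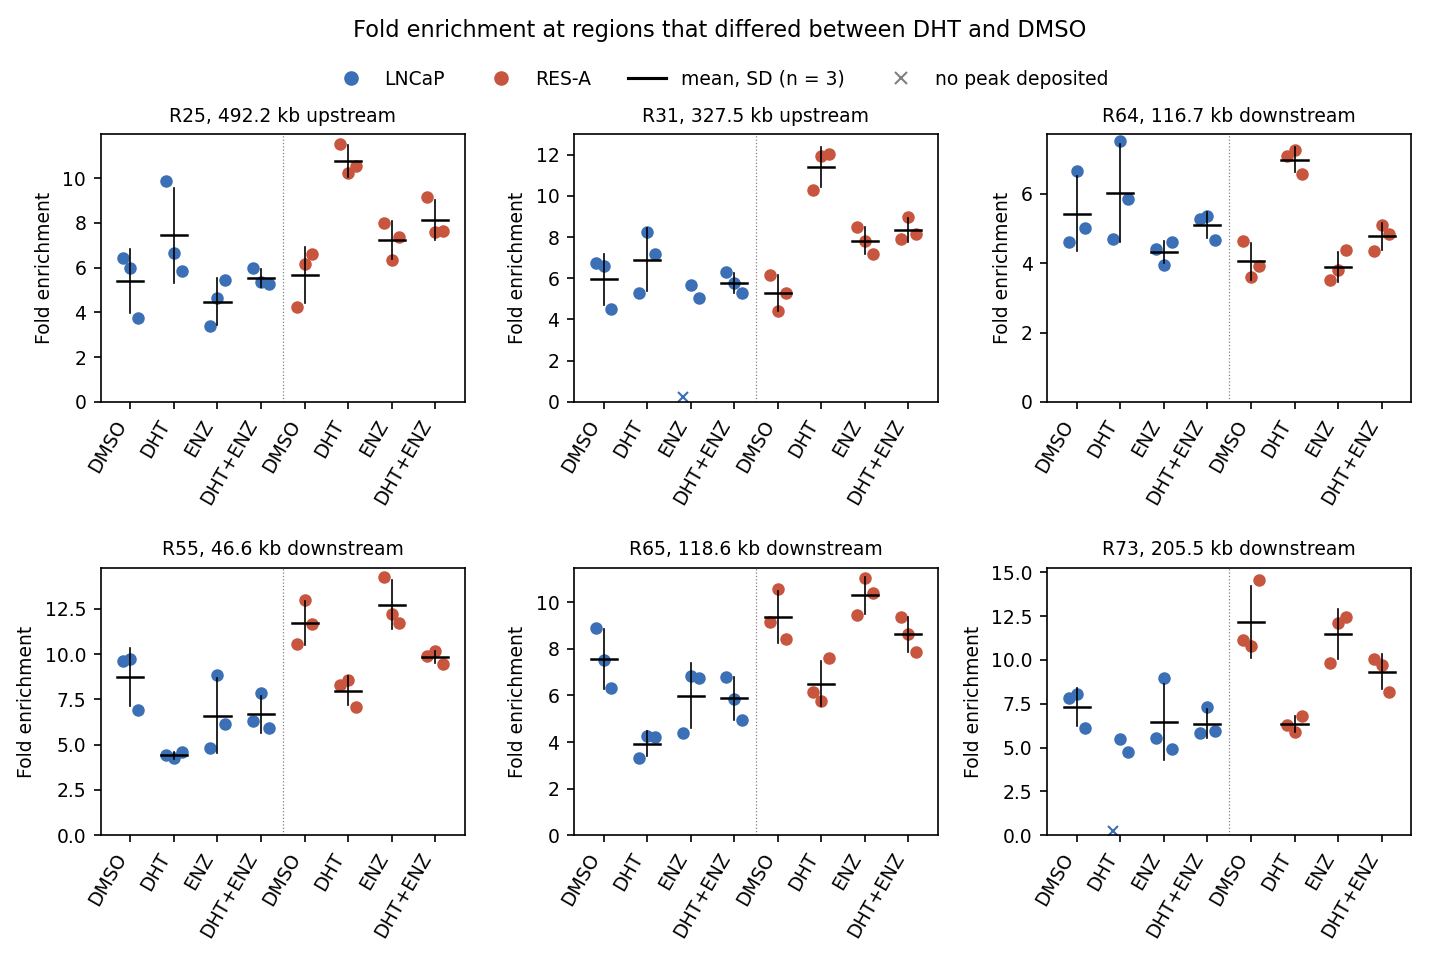
Fold enrichment in each library at 3 regions higher with DHT (R25, R31, R64) and 3 lower (R55, R65, R73), by subline and treatment. Crosses mark libraries with no deposited peak, and lines the mean and SD of groups with a peak in all 3 libraries; at R64 the RES-A DHT libraries stood at 6.58 to 7.27 and the DMSO libraries at 3.60 to 4.64.

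ENZ alone changed little that could be detected. RES-A had ENZ in the 3 days before, so comparisons with and without ENZ set ENZ kept against ENZ withdrawn there. In LNCaP they set ENZ added against none. The ENZ difference from DMSO in the share of top-ranked peaks was 0.001 points in LNCaP (exact permutation test, p = 0.9) and 0.003 in RES-A (exact permutation test, p = 0.7). With limma, 0 of the 22 regions passed in either subline (0% of all regions tested). At an unadjusted p under 0.05 there was 1 in LNCaP, R38 (−0.28 ± 0.13, adjusted p = 0.524), and 0 in RES-A. These counts are given without a share over all regions. In RES-A, R25 had the smallest p (0.29 ± 0.21). R51, 6.6 kb past the MYC start, was the only region called in all 3 ENZ libraries and no DMSO library of RES-A (0.545% of all such regions). Its RES-A fold enrichment was 5.35, 4.10 and 3.98 with DMSO and 6.14, 5.53 and 5.29 with ENZ, and these overlapped slightly.

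Adding ENZ to DHT was compared with DHT alone. This comparison shares the DHT libraries with the one above, so opposite signs in both are in part arithmetic. The share of top-ranked peaks differed by 0.008 points in LNCaP (exact permutation test, p = 0.2), 0.006 in RES-A (exact permutation test, p = 0.5) and 0.007 over both (exact permutation test, p = 0.065, adjusted p = 0.391). With limma, 0 of the 22 regions passed in LNCaP (0.11% higher and 0.0993% lower over all regions tested) or RES-A (0.0411% each way). At an unadjusted p under 0.05 there were 7 in LNCaP and 5 in RES-A, given without a share over all regions. The shares just given are for the adjusted threshold and cannot be set beside these counts.

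At R65 in LNCaP, the values were 3.32, 4.28 and 4.21 with DHT, 6.81, 5.87 and 4.95 with DHT+ENZ and 8.90, 7.52 and 6.32 with DMSO. The DHT+ENZ libraries thus lay above all DHT libraries and below 2 of the 3 DMSO libraries. The difference from DHT was 0.60 ± 0.17 (adjusted p = 0.110), and it passed only without LNCaP DHT replicate 3 (0.78, adjusted p = 0.0476). At R55 the LNCaP difference was 0.47 ± 0.14 (adjusted p = 0.150) and the RES-A difference 0.33 ± 0.14 (adjusted p = 0.589). At R64 both differences were −0.46 ± 0.16 (adjusted p = 0.209 and 0.374).

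At R25 the RES-A values with DHT+ENZ were 9.14, 7.58 and 7.66, below all 3 DHT and above all 3 DMSO libraries, and the difference from DHT was −0.33 ± 0.21 (adjusted p = 0.856). R46, at −149.7 kb, had the smallest p in RES-A (0.40 ± 0.12, adjusted p = 0.256). By peak calls, R55 and R65 in LNCaP (2 of 45 regions; 1.29%) and R45 and R73 in RES-A (2 of 59; 1.82%) were called in all 3 DHT+ENZ libraries and no DHT library. R67 was called in all 3 DHT libraries and no DHT+ENZ library of RES-A (2.33%). The sublines' responses to ENZ and to DHT+ENZ against DHT did not differ past the threshold at any of the 22 regions (0 and 2 had an unadjusted p under 0.05).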

How the data were processed

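Per the labels and the study's methods, FAIRE DNA was sequenced as 50-bp single-end reads, which the authors aligned to hg19 with BWA 0.7.8-r455, marked for duplicates with Picard 1.118 and called with MACS2 2.1.0 in each library separately; the caller's options are not given in the sources used here. The deposited lists hold, for each peak, the pileup at its summit (a signal, in reads, not scaled between libraries), the −log10 of the p-value and q-value, and the fold enrichment over the expected pileup. Peaks reached beyond the GRCh38 ends of 15 of 24 chromosomes, so the GRCh38 reference was used for gene names and order alone.

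Peaks were ranked by −log10 p and the 50000 top-ranked of each library kept; overlapping ones (1 bp) were merged into regions. Windows of the domain's width with a mean of at least 10 peaks were compared by exact permutation (160000 relabellings of sublines within treatments, 400 for a treatment over both sublines, 20 for 3 libraries against 3). The local background was the median over a window's top-ranked peaks of (pileup + 1) / fold enrichment − 1, over the smallest value in the library. Regions with a call in 6 to 18 libraries were compared between sublines with Fisher's exact test, and quantile-normalised log2 fold enrichment with limma 3.58.1 (R 4.3.3) over all 8 groups; Benjamini-Hochberg adjustment covered the whole genome, and differences passed at an adjusted p under 0.05. Other steps used Python 3.11.15 with scipy 1.17.1. The tests were tested on simulated data. The named regions were those nearest the MYC start, up to 5 a direction between sublines and 3 a direction for each treatment contrast (or the smallest p where none passed), up to 3 a direction by Fisher's test, and the 5 of highest mean percentile; any other region was named after its values were seen. The members and the rules were chosen with earlier results of these data known. p-values measure the spread between replicate cultures of each line.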

Additional observations from a re-analysis of the deposited data

How the results depend on the processing

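The subline difference in the share of top-ranked peaks kept its direction and its side of the threshold under every alternative run (25000 or all peaks, q of at most 0.01, base pairs, replicate block, 2 libraries of low background left out, share among the domain and its flanks), from 0.0179 to 0.0202 points with 1 library left out. That of the local background did too (0.690 to 0.767). The low-background and flank alternatives were chosen after seeing the data, and the flank share was judged by an unadjusted p. Same-numbered libraries were not taken as paired: their deviations correlated at −0.0625 to 0.0682 across sublines (12 pairs, 0 over 0.1) and at −0.136 to 0.259 within a subline (36 pairs, 8 over 0.1; mean 0.054, against −0.025 for other numbers). With a replicate block the share still differed by 0.019 (exact sign-flip test, adjusted p = 0.00134), and the limma counts stayed at 5 and 6. Of 25 regions, 9 and 2 were then called more often in RES-A and LNCaP (10172 and 7916 of 38599 over the genome). R1, R52, R58, R62 and R81 were no longer called more often in a subline (exact paired test of calls, adjusted p = 0.0543 each). R1 also lost it with calls in at least 2 libraries (adjusted p = 0.114) and in 500-bp tiles (0.0506). Regions called more often in RES-A were 8 of 17 tested with 25000 peaks (6102 of 21529 over the genome). They were 33 of 93 with all peaks (33375 of 125323) and 24 of 49 in 500-bp tiles (21315 of 73908). Those called more often in LNCaP were 2 of 17 (4780 of 21529), 5 of 93 (23448 of 125323) and 3 of 49 (16579 of 73908). Regions called more often in RES-A and LNCaP numbered 11 to 14 and 3 to 4 with 1 library left out. Without the 2 libraries of low background, they were 13 and 4 of 24 (11942 and 10442 of 34612). Regions higher and lower in RES-A numbered 3 and 1 by percentile of −log10 p and 11 and 3 by pileup over the genome-wide background. They numbered 18 and 14 with a peak in at least 20 libraries (23% and 21% of all regions tested). Without the 2 libraries of low background, an alternative chosen after seeing the data, they numbered 13 and 14. With 1 library left out both ran from 5 to 9, with 9 higher without LNCaP DHT replicate 1 and 9 lower without LNCaP ENZ replicate 1. R21 was at 5.22 by percentile and 0.52 by pileup, and R64 at 0.038 by pileup. For DHT in LNCaP, regions higher and lower numbered 0 and 0 by percentile; those higher were 4 by pileup and 3 without the low-background libraries (0 to 5 and 0 to 3 with 1 library left out). For DHT in RES-A they were 0 and 0 by percentile and 8 and 3 without the low-background libraries; those higher were 5 in at least 20 libraries and those lower 2 with median centring and 2 by pileup (0 to 5 and 0 to 2). For DHT+ENZ against DHT in LNCaP, 1 was higher by pileup and 1 without the low-background libraries (0 to 1). The treatment differences in the share, none of which passed, turned sign in places. DHT in LNCaP was 0.001 without the low-background libraries (−0.004 to 0.001 with 1 library left out). DHT in RES-A was −0.0019 with all peaks and −0.0033 at q of at most 0.01, and over both sublines −0.0013, −0.0024 and, by base pairs, −0.0023. ENZ in LNCaP was −0.0067 with 25000 peaks, −0.00053 by base pairs and −0.003 without the low-background libraries (−0.003 to 0.004), in RES-A −0.001 to 0.008, and over both −0.00067 with 25000 peaks. DHT+ENZ against DHT with 25000 peaks was −0.0013 in LNCaP, −0.0027 in RES-A and −0.002 over both. The cause of these changes was not tested.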
